A study of Homo sapiens with 15 samples.

Results

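The 10 genes described here encode proteins of the primary (azurophil) granule and proteins stored with or acting on them: MPO, ELANE, AZU1, PRTN3, CTSG, LYZ, RNASE2, CFD, SRGN and SERPINB1. They were chosen by gene symbol, as a functional group, with earlier fold changes of these data known. Their values and calls are therefore a description and not independent evidence that granule genes respond. All 10 of 10 symbols were found, each on 1 row of the 57820 gene identifiers in the deposited values, and all 10 were above 0 in every library of MOLM-13, U937 and HL-60.

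Primary granules are built at the promyelocyte stage of granulocyte development, when transcription of their contents peaks. The serine proteases neutrophil elastase (ELANE), proteinase 3 (PRTN3) and cathepsin G (CTSG) are stored there in active form on the proteoglycan serglycin (SRGN), beside azurocidin (AZU1), a protease homologue without enzyme activity. Myeloperoxidase (MPO) makes hypochlorous acid from hydrogen peroxide, and lysozyme (LYZ) cleaves bacterial cell walls. RNASE2, the eosinophil-derived neurotoxin, is a ribonuclease, CFD is the serine protease that activates the alternative complement pathway, and SERPINB1 is a cytosolic inhibitor of elastase, proteinase 3 and cathepsin G. Leukaemic blasts arrested near the promyelocyte stage keep much of this programme.

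The study asked how loss of RNF5, a membrane-anchored ubiquitin ligase, alters transcription in acute myeloid leukaemia (AML). RNA-seq was done on 15 libraries from 3 human AML cell lines transduced with the empty pLKO vector (control) or with shRNF5, a short hairpin RNA against RNF5 (RNF5-KD). MOLM-13 is a monocytic line with 3 pLKO and 2 shRNF5 libraries, U937 is a promonocytic line with 2 and 2, and HL-60 is a myeloblastic to promyelocytic line with 3 and 3. RNA was harvested 7 days after knockdown by the protocol in the labels but 5 days by the design text, and the sources do not say which hairpin was sequenced or whether replicates were separate cultures. P-values thus measure the spread between these libraries, which may be technical.

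Values are the authors' normalized read counts, rounded to whole numbers and scaled within each line, so that counts are compared between constructs within a line. A gene was called when a limma test on log2(value + 1), over all genes of the line, gave a Benjamini-Hochberg adjusted p under 0.1 and the log2 fold change exceeded 0.4 in either direction. Estimated depth ran from 9700000 to 63800000 counted reads per library. RNF5 itself fell in every line, with log2 fold changes of -3.25 in HL-60, -3.64 in U937 and -3.77 in MOLM-13. Residual RNF5 was 6.17% to 9.93% of the pLKO mean in 6 shRNF5 libraries and 22.9% in HL-60 shRNF5 replicate 2. That library is given with and without where a result turns on it. Of the markers of other cell types, CD34 and PROM1 (progenitors), CD3E and CD3D (T cells), HBB (red cells) and EPCAM (epithelium) were listed at 0 in all lines, as were FCGR3B, MME and CEACAM8 of mature neutrophils.

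On GRCh37, the build of hg19, AZU1 (chr19:825097-832018), PRTN3 (chr19:840999-848175), ELANE (chr19:851014-856247) and CFD (chr19:859453-867884) lie side by side on the forward strand of chromosome 19, within 42.8 kb. The others are scattered. CTSG lies on the reverse strand at chr14:25042724-25045456, RNASE2 on the forward strand at chr14:21423646-21424595 and MPO on the reverse strand at chr17:56347216-56358296. LYZ lies at chr12:69742161-69748014 and SRGN at chr10:70847859-70864561, both on the forward strand, and SERPINB1 at chr6:2832566-2842193 on the reverse strand. CFD overlaps the end of MED16 on the opposite strand and LYZ overlaps a long non-coding RNA, and whether the reads were counted by strand is not given in the sources used here. MED16 was not called in any line, its log2 fold change being -0.11 in HL-60, -0.17 in U937 and -0.41 in MOLM-13.

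The upstream bases of AZU1, PRTN3 and CTSG, which fell in U937 and rose in HL-60, are shown first, with CFD, which rose in HL-60 and was not called in U937, and RNASE2, which rose in U937, beside them. RefSeq promoters on GRCh38.p14 were matched for 6 of the 10 members (AZU1, PRTN3, CTSG, CFD, RNASE2 and SERPINB1). The 150 bases before each RefSeq start are written 5′ to 3′ on the gene's own strand. By position, the AZU1 and CFD windows fall inside the gene spans given above, while the PRTN3 window ends where its span begins. The starts used here can thus differ from those of the gene spans. Capitals mark GAGGAA (an ETS-family core of the PU.1 type), TTNNGNAA (a C/EBP-type half-site pair) and TATAA, the core of the TATA box, each sought on both strands.
AZU1 (chr19:827687-827836, forward strand): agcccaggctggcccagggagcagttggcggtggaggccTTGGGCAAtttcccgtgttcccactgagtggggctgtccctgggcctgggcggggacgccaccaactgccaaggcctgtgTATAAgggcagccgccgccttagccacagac
PRTN3 (chr19:840849-840998, forward strand): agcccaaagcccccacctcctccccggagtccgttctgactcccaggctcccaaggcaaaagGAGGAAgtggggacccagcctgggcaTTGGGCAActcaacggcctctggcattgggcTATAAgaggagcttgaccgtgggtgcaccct
CTSG (chr14:24576251-24576400, reverse strand): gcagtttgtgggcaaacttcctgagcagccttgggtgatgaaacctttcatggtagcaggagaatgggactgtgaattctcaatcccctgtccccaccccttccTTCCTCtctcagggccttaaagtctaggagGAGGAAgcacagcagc
CFD (chr19:859514-859663, forward strand): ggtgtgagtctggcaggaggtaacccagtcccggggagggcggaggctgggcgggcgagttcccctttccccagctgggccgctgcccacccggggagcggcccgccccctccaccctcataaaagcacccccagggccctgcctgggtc
RNASE2 (chr14:20955337-20955486, forward strand): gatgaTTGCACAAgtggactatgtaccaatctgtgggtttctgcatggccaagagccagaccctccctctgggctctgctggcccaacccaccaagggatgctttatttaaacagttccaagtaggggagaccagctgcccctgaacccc

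AZU1 and PRTN3 held the same 8 letters, TTGGGCAA, at bases -111 to -104 and -62 to -55 before their starts, and TATAA at -31 to -27 in each. SERPINB1, whose bases are not shown, held TATAA at -30 to -26. CTSG held GAGGAA as written at -16 to -11 and as TTCCTC on the opposite strand at -46 to -41, and PRTN3 held it at -88 to -83. The CFD window held none of these letters. Among all 35116 promoters of the table, 14.8% held GAGGAA, 20% TTNNGNAA and 12.1% TATAA within the same length. TGTGGT, the RUNX core, was in 6.59% of all promoters and in none of the 6, and AACNG, a MYB-type core, was in 52.1% of all and in CTSG, AZU1, PRTN3 and RNASE2 (not capitalized). A match describes letters in this window and does not show that a factor binds there.

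In U937, 4 of the 10 members fell after RNF5-KD, and these were azurocidin (AZU1) and the 3 serine proteases ELANE, PRTN3 and CTSG. RNASE2 rose. In all, 8.74% of genes tested in U937 were called lower and 6.92% higher, and since the members were selected on knowledge of these fold changes nothing is read from the 4 against that share. The members' median log2 fold change in U937 was -0.63, against 0.00 over all genes tested.

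AZU1 had the largest fold change of the 10 in U937. Its normalized read count was 12516 and 13539 in the U937 pLKO libraries and 1749 and 3267 in the shRNF5 libraries. The groups were far apart, with an shRNF5 mean 0.193 times that of pLKO. The log2 fold change was -2.44 (SE 0.30, limma adjusted p = 0.00829).

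ELANE was 9166 and 11149 with pLKO and 5780 and 4077 with shRNF5 in U937. The groups did not overlap, and the log2 fold change was -1.06 (SE 0.27, limma adjusted p = 0.0447). CTSG was 30047 and 18105 with pLKO and 12769 and 8277 with shRNF5, a log2 fold change of -1.18 (SE 0.33, adjusted p = 0.0562). PRTN3 was 1633 and 3539 with pLKO and 1171 in each shRNF5 library, so that the lower pLKO library lay near the knockdown, and its log2 fold change was -1.04 (SE 0.34, adjusted p = 0.0841). CFD, at 2641 and 1051 with pLKO and 958 and 639 with shRNF5, had a log2 fold change of -1.09 of similar size but was not called (SE 0.40, adjusted p = 0.11).

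RNASE2 went the other way in U937. It was 445 and 1951 in the pLKO libraries and 2030 and 4521 in the shRNF5 libraries, a log2 fold change of 1.70 (SE 0.57, limma adjusted p = 0.0929). The pLKO libraries differed more from each other than the higher of them did from the lower shRNF5 library. Its eosinophil-granule relative RNASE3, which is not a member, was 312 and 897 with pLKO and 1159 and 1597 with shRNF5 in U937, with a log2 fold change of 1.36 (adjusted p = 0.0769). RNASE2 and RNASE3 are close in sequence, and how reads matching both were counted is not given in the sources used here.

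The remaining members were not called in U937. SRGN was 20400 and 25419 with pLKO and 40553 and 22332 with shRNF5, so the groups overlapped (log2 fold change 0.40, adjusted p = 0.46). LYZ was 11555 and 16704 with pLKO and 13342 and 10482 with shRNF5 (log2 fold change -0.23, adjusted p = 0.628). SERPINB1 was 5353 and 7054 with pLKO and 5566 and 6357 with shRNF5, with log2 fold change -0.05 (adjusted p = 0.924). MPO was low in this line, at 42 and 32 with pLKO and 35 and 96 with shRNF5, with a log2 fold change of 0.65 (adjusted p = 0.503) that was -0.07 without shRNF5 replicate 3.

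With 2 libraries a group, no U937 call held in every fit that left out a library. When single libraries were left out, the lone library of the reduced arm being assumed to vary like the other group, ELANE and PRTN3 were no longer called in any of 4 fits, and AZU1 was lost without pLKO replicate 2 (adjusted p = 0.256) and without shRNF5 replicate 1 (0.519). CTSG was lost without pLKO replicate 2 (0.291), shRNF5 replicate 1 (0.519) and shRNF5 replicate 3 (0.332), and RNASE2 without the same libraries (0.497, 0.576 and 0.486) and with values scaled to the library sum (0.133). CFD was called without pLKO replicate 3 (0.0647), with library weights (0.0811), with a mean value of at least 50 (0.09), with a pseudocount of 10 (0.0976) and at an unadjusted p under 0.05. In these fits the log2 fold changes of AZU1 ran from -2.90 to -1.99 and those of ELANE from -1.31 to -0.81. For CTSG they ran from -1.55 to -0.82, for PRTN3 from -1.59 to -0.48, for CFD from -1.75 to -0.43 and for RNASE2 from 0.63 to 2.76.

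In HL-60, 9 of the 10 members rose after RNF5-KD and none fell. Called genes made up 13.6% of those tested in the upward direction and 12.3% in the downward direction, and again nothing is read from the 9, since the members were chosen with this contrast known. Their median log2 fold change in HL-60 was 1.31, against 0.00 over all genes tested. The fitted changes ranged from 0.60 for MPO to 2.99 for CFD among those called, and RNASE2 was not called.

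**Figure D1:**
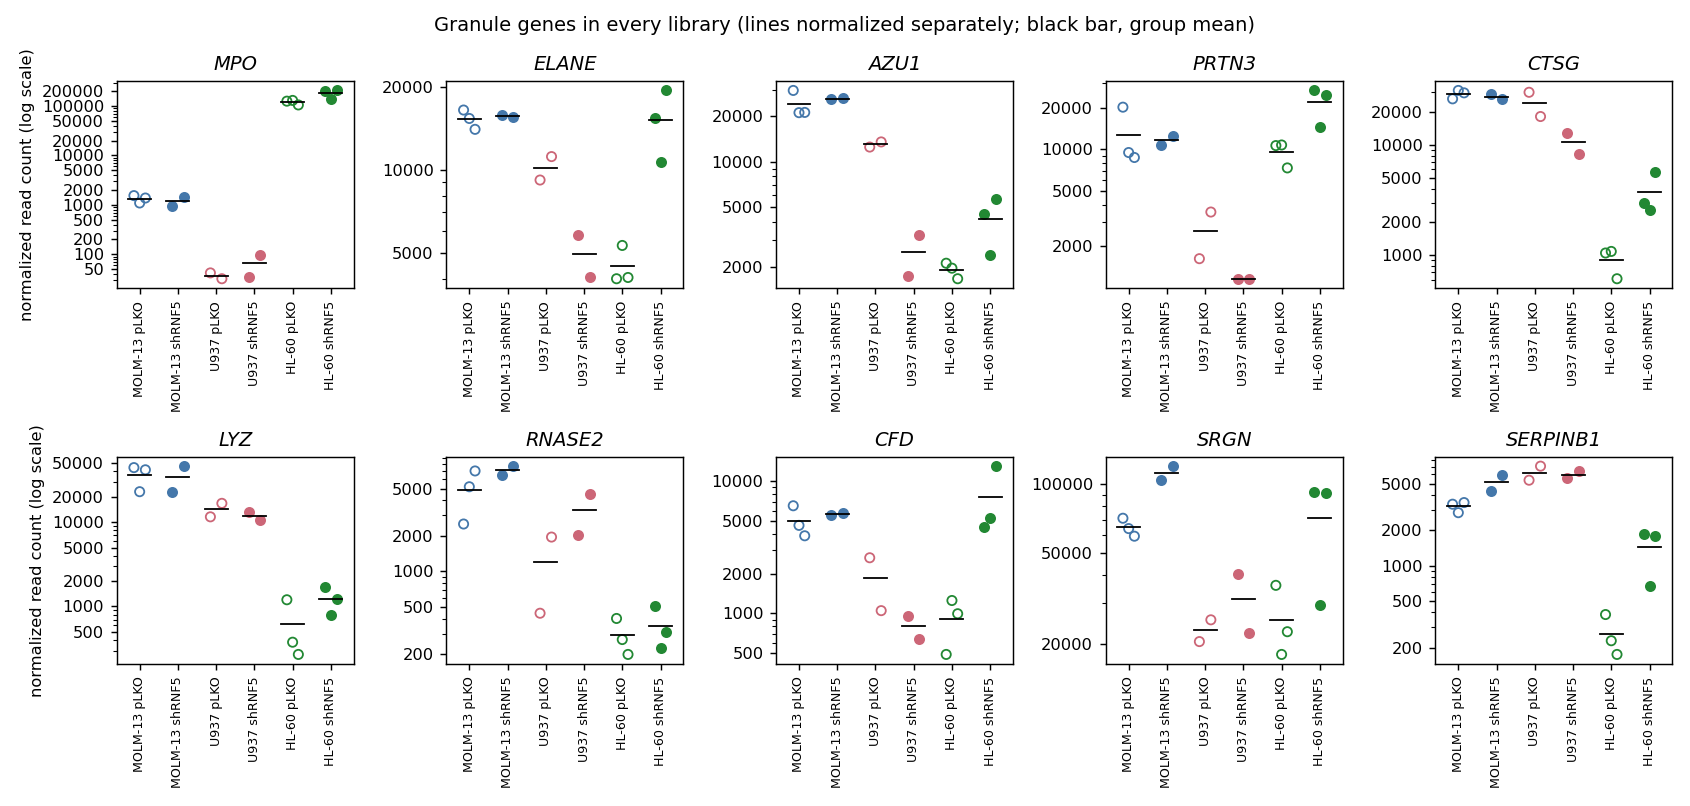
Normalized read count (log scale, lines normalized separately) of each granule gene in every library, by line and construct. Open points are pLKO libraries, filled points shRNF5 libraries and black bars group means. The AZU1 values of the U937 shRNF5 libraries (1749 and 3267) lie below both pLKO values, whereas those of ELANE in HL-60 (10651 to 19378) lie above all pLKO values.

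The 3 serine proteases of the granule all rose in HL-60. ELANE was 4017, 5305 and 4059 in the pLKO libraries and 15330, 10651 and 19378 in the shRNF5 libraries, a mean 3.39 times higher. The lowest shRNF5 value was above the highest pLKO value by a wide margin, with log2 fold change 1.73 (SE 0.21, limma adjusted p = 0.00125). CTSG was 1046, 1081 and 611 with pLKO and 2989, 2553 and 5731 with shRNF5, with log2 fold change 1.99 (SE 0.29, adjusted p = 0.00238). PRTN3 was 10652, 10757 and 7355 with pLKO and 26570, 14537 and 24548 with shRNF5, with log2 fold change 1.16 (SE 0.23, adjusted p = 0.00801). All shRNF5 libraries of these 3 genes were above all pLKO libraries of HL-60.

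AZU1 was also higher. It was 2115, 1961 and 1668 with pLKO and 4495, 2391 and 5688 with shRNF5 in HL-60, a log2 fold change of 1.05 (SE 0.26, limma adjusted p = 0.0193). The value of 2391 belonged to shRNF5 replicate 2 and was close to the pLKO range.

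CFD, the complement protease, had the highest fold change of the 10 in HL-60. It was 490, 1254 and 996 with pLKO and 4476, 5256 and 13034 with shRNF5, with log2 fold change 2.99 (SE 0.40, limma adjusted p = 0.00163), an 8.31-fold ratio of means. The shRNF5 libraries varied widely but none came near pLKO. SERPINB1, the inhibitor of elastase, proteinase 3 and cathepsin G, rose as well. It went from 383, 229 and 175 with pLKO to 1851, 670 and 1775 with shRNF5 (log2 fold change 2.38, SE 0.37, limma adjusted p = 0.00327).

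SRGN, the proteoglycan scaffold of the granule, was 36017, 17916 and 22541 with pLKO and 92095, 29380 and 91456 with shRNF5 in HL-60. Here the groups overlapped, since shRNF5 replicate 2 lay below pLKO replicate 1, and the log2 fold change was 1.36 (SE 0.40, limma adjusted p = 0.0383). LYZ overlapped too, at 1201, 377 and 270 with pLKO and 1698, 787 and 1236 with shRNF5, a log2 fold change of 1.25 (SE 0.46, adjusted p = 0.0777). For LYZ the high pLKO library was replicate 1, which was also the highest of the pLKO libraries for SRGN, SERPINB1 and RNASE2.

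MPO, whose level in HL-60 was far above that in the other lines, had the smallest fold change of those called. It was 125950, 130372 and 105563 with pLKO and 205517, 141317 and 207430 with shRNF5, a log2 fold change of 0.60 (SE 0.22, limma adjusted p = 0.078). In summed values, MPO took 0.65% to 0.795% of each pLKO library and 0.877% to 1.26% of each shRNF5 library. RNASE2, at 402, 267 and 200 with pLKO and 510, 227 and 311 with shRNF5, had a log2 fold change of 0.25 (SE 0.30, adjusted p = 0.595), and the groups overlapped.

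Library by library, 10 of 10 members were above every pLKO value in HL-60 shRNF5 replicate 1, 9 in replicate 3 and 7 in replicate 2. The matching share over all genes was not computed, so nothing is read from these counts. The median member was 1.76, 1.74 and 0.64 above the pLKO mean on the log2 scale in replicates 1, 3 and 2. Replicate 2, the library with the most residual RNF5 (a value of 133, beside 37 and 43), had the lowest shRNF5 value of 9 members, whereas for CFD replicate 1 was lowest. The part of residual RNF5 in these differences was not tested. ELANE, AZU1, PRTN3, CTSG, CFD and SERPINB1 were called in all 6 fits that left out single HL-60 libraries, including that without shRNF5 replicate 2.

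The other HL-60 calls were less firm. MPO was called in 1 of the 6 fits, that without shRNF5 replicate 2, with log2 fold changes from 0.50 to 0.78 and adjusted p from 0.0274 to 0.293, and it was not called in the fit over all 15 libraries (0.167). LYZ was called in 2 of 6 (0.81 to 1.89), those without pLKO replicate 1 and without shRNF5 replicate 2. SRGN was called in 4 of 6, being lost without pLKO replicate 3 (limma adjusted p = 0.125) and without shRNF5 replicate 3 (0.144). KIT, the only progenitor marker detected, rose in HL-60 as well (47.3 to 72.8 ppm, parts per 1000000 of a library's summed values, with pLKO, and 122 to 149 ppm with shRNF5), and its part in the granule gene values was not tested. The 2 monocyte markers detected in HL-60 (of 10 listed) summed to 17.8 to 23.1 ppm with pLKO and 11 to 24.5 ppm with shRNF5, with CD14, CSF1R and CD163 listed at 0. Of these, FCGR1A fell (log2 fold change -0.69, adjusted p = 0.049) and ITGAM was not called (0.68). Among markers of other cells in HL-60, the eosinophil gene PRG2 (-1.58, adjusted p = 0.0109), GATA2 of the basophil and mast cell list (-0.75, adjusted p = 0.0358) and CXCR2 (-0.65, adjusted p = 0.0785) fell, and NKG7 of the lymphoid list (1.0, adjusted p = 0.0759) and epithelial KRT8 (1.56, adjusted p = 0.0164) rose. Their part in the member values was not tested. In bulk RNA, a different share of cells at one stage and a different amount of RNA per cell cannot be told apart.

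Transcript length moved with the fold changes and is given for that reason. Across genes, the rank correlation of fold change and transcript length was -0.203 in HL-60, 0.119 in U937 and 0.261 in MOLM-13, and member transcripts were short, from 720 to 3216 bases. For other genes in that length range the median log2 change was 0.11 in HL-60, -0.07 in U937 and -0.10 in MOLM-13. Of these, 17.5% were called higher and 7.86% lower in HL-60, and 5.27% higher and 10.2% lower in U937. After correction of each library for length, 8 of the 9 HL-60 calls and all 5 U937 calls were made, with LYZ lost in HL-60 (adjusted p = 0.101).

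In MOLM-13, 1 of the 10 members was called. SRGN was 70967, 63918 and 59186 with pLKO and 104925 and 120136 with shRNF5, a log2 fold change of 0.80 (SE 0.15, limma adjusted p = 0.0767). Its groups were well apart. For all genes tested in MOLM-13, 1.03% were called higher and 1.01% lower, so that few genes of any kind passed. The members' median log2 fold change there was 0.09, against 0.01 over all genes. The call was lost without pLKO replicate 2 (adjusted p = 0.206), pLKO replicate 3 (0.113), shRNF5 replicate 1 (0.455) or shRNF5 replicate 2 (0.614), while the log2 fold change stayed between 0.70 and 0.90.

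SERPINB1 was 3342, 2829 and 3451 with pLKO and 4350 and 5937 with shRNF5 in MOLM-13, again without overlap, but was not called (log2 fold change 0.67, SE 0.17, limma adjusted p = 0.13). RNASE2 overlapped at 2513, 5179 and 7037 with pLKO and 6483 and 7725 with shRNF5 (log2 fold change 0.65, adjusted p = 0.398). The serine proteases and azurocidin had log2 fold changes smaller than their SE. ELANE was 16453, 15332 and 14000 with pLKO and 15794 and 15571 with shRNF5, a log2 fold change of 0.04 (SE 0.13, adjusted p = 0.892).

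AZU1 was 29768, 21186 and 21267 with pLKO and 26122 and 26413 with shRNF5 in MOLM-13 (log2 fold change 0.14), and CTSG was 26195, 31218 and 29690 with pLKO and 28731 and 25909 with shRNF5 (log2 fold change -0.09). PRTN3 was 20137, 9493 and 8741 with pLKO and 10740 and 12442 with shRNF5 (log2 fold change -0.04, SE 0.33). Relative to their means, RNASE2, PRTN3 and LYZ had the widest spread of the 10 among the MOLM-13 pLKO libraries. LYZ was 44303, 22953 and 41738 with pLKO and 23025 and 46098 with shRNF5, so each construct spanned the same range (log2 fold change -0.10, SE 0.35). CFD was 6535, 4643 and 3873 with pLKO and 5612 and 5719 with shRNF5 (log2 fold change 0.21), and MPO was 1541, 1093 and 1378 with pLKO and 951 and 1441 with shRNF5 (log2 fold change -0.18).

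**Figure D2:**
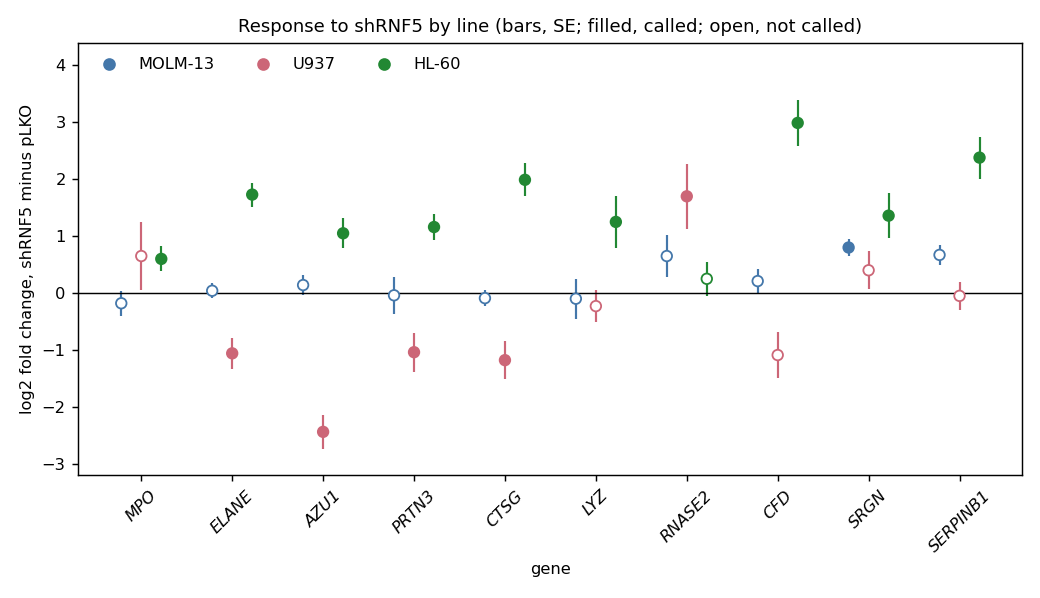
Log2 fold change of each granule gene (shRNF5 minus pLKO, log2(value + 1) scale) in MOLM-13, U937 and HL-60. Bars are SE, filled points were called and open points were not. ELANE, AZU1, PRTN3 and CTSG lie below 0 in U937 (-1.06, -2.44, -1.04 and -1.18) and above 0 in HL-60 (1.73, 1.05, 1.16 and 1.99).

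**Figure D3:**
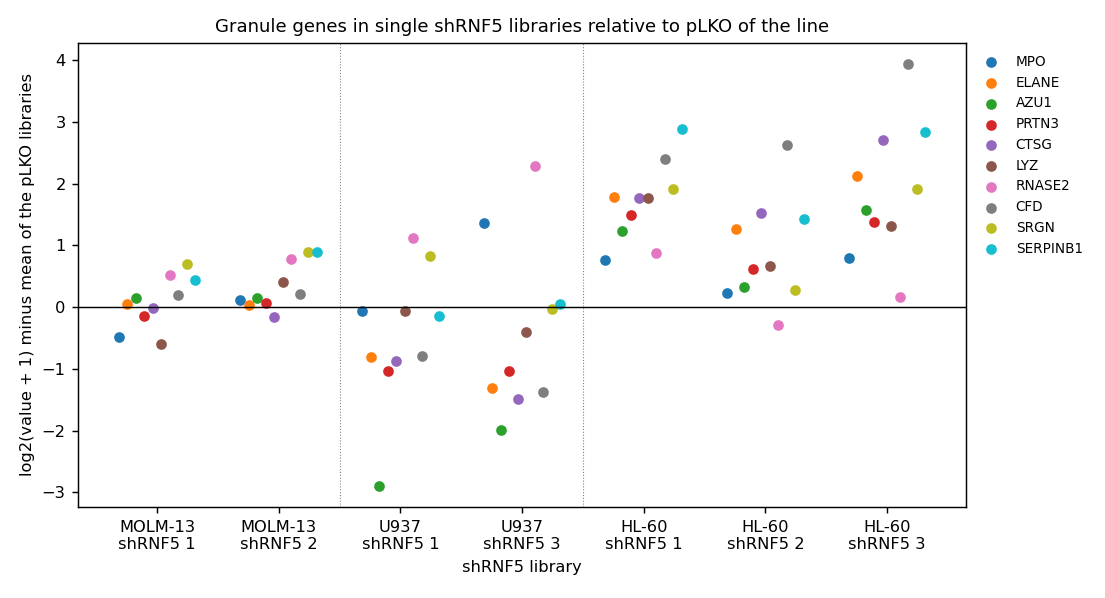
Each granule gene in each shRNF5 library, as log2(value + 1) minus the mean of the pLKO libraries of its line. In HL-60 the median gene is 1.76, 0.64 and 1.74 in replicates 1, 2 and 3, and in U937 it is -0.47 and -0.72 in replicates 1 and 3.

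Whether the response itself differed between lines was tested as an interaction in a limma fit over all 15 libraries and 11072 genes. Between U937 and HL-60 it differed for 6 of the 10 members, where 37.2% of all genes tested were called. The difference of log2 fold changes, U937 minus HL-60, was -4.08 for CFD (SE 0.64, limma adjusted p = 0.000907), -3.49 for AZU1 (SE 0.42, adjusted p = 0.000207) and -3.18 for CTSG (SE 0.45, adjusted p = 0.000528). For ELANE it was -2.79 (adjusted p = 0.000135), for SERPINB1 -2.43 (adjusted p = 0.0039) and for PRTN3 -2.20 (adjusted p = 0.00593). These 6 were called in all 15 fits that left out single libraries.

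The remaining members did not pass between U937 and HL-60. LYZ had a difference of -1.48 (limma adjusted p = 0.123), RNASE2 of 1.45 (0.166), SRGN of -0.96 (0.223) and MPO of 0.05 (SE 0.45, adjusted p = 0.946). These SEs are wide, so a p that misses the threshold does not show that the lines respond alike. Without HL-60 shRNF5 replicate 2, the differences of SRGN (-1.51, limma adjusted p = 0.0173) and LYZ (-1.78, 0.0818) were called.

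Between MOLM-13 and HL-60 the response differed for ELANE (difference -1.69, limma adjusted p = 0.0113), CTSG (-2.08, 0.0231), CFD (-2.78, 0.0276) and SERPINB1 (-1.71, 0.0618), 4 of 10 members where 8.82% of all genes were called. Without MOLM-13 shRNF5 replicate 1, the library of greatest depth, ELANE alone was called between MOLM-13 and HL-60. Without HL-60 shRNF5 replicate 2, AZU1 (-1.26, limma adjusted p = 0.0513) and PRTN3 (-1.47, 0.0972) were called as well as the 4. The SERPINB1 difference was less firm. It was also lost without MOLM-13 pLKO replicate 1 (limma adjusted p = 0.119), HL-60 pLKO replicate 3 (0.144) or HL-60 shRNF5 replicate 3 (0.174), and without the mean-variance trend (0.102). Between MOLM-13 and U937 it differed for AZU1 (2.59, adjusted p = 0.00782) and ELANE (1.10, adjusted p = 0.0525), 2 of 10 members where 15.4% of all genes were called. The AZU1 difference was called in all 15 fits that left out a library and the ELANE difference in 9. The comparisons of a line with each of the others share that line's libraries.

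How the members moved with one another was described over the 15 libraries after centring on each line, which leaves knockdown and library differences together. Pearson r of a member with the mean of all 10 members, itself included, was 0.968 for SERPINB1, 0.916 for ELANE, 0.874 for CTSG, 0.831 for PRTN3 and 0.809 for CFD. It was 0.801 for SRGN, 0.778 for LYZ and 0.686 for AZU1, and fell to 0.461 for MPO and 0.142 for RNASE2. Among pairs, ELANE and CTSG had r = 0.93 and ELANE and CFD r = 0.90, while AZU1 and RNASE2 had r = -0.31. Of 9615 genes with a mean value of at least 50, METTL23 (r = 0.965), RIN1 (0.95), ARFGAP3 (0.942), GGCX and RNF170 (0.935 each) were most like the member mean. All 5 rose in HL-60 (log2 fold changes 0.99, 1.51, 1.08, 0.64 and 0.93) and were not called in U937 or MOLM-13. They were picked for following the member mean, which itself rose in HL-60, so nothing is read from their rise there.

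AZU1, PRTN3, ELANE and CFD stand next to each other, and their neighbours were examined for the same direction. On the left lies PRSS57, the gene of a further azurophil serine protease. Its start, on the reverse strand, lies at -129.6 kb from that of AZU1. In U937 PRSS57 was 92 and 39 with pLKO and 12 and 19 with shRNF5, a log2 fold change of -1.92 (limma adjusted p = 0.0888). In HL-60 it was 9, 23 and 6 with pLKO and 153, 150 and 260 with shRNF5 (log2 fold change 3.94, adjusted p = 0.000863). PRSS57 thus fell in U937 and rose in HL-60, the directions of AZU1, PRTN3 and ELANE. PALM fell in U937 (log2 fold change -1.32, adjusted p = 0.079) and was listed at 0 in HL-60, PLPPR3 rose in HL-60 (0.57, adjusted p = 0.0389), and PTBP1, whose end lies at -12.8 kb, was not called in any line.

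On the right, none of MED16, R3HDM4, ARID3A and WDR18 was called in any line, and KISS1R, GRIN3B and, on the left, MISP were listed at 0 in all lines. Within the locus the fold changes of the 4 members were unequal, a spread that was not tested. In U937 the log2 fold changes were -2.44, -1.04, -1.06 and -1.09 in the order AZU1, PRTN3, ELANE and CFD, and in HL-60 they were 1.05, 1.16, 1.73 and 2.99.

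**Figure D4:**
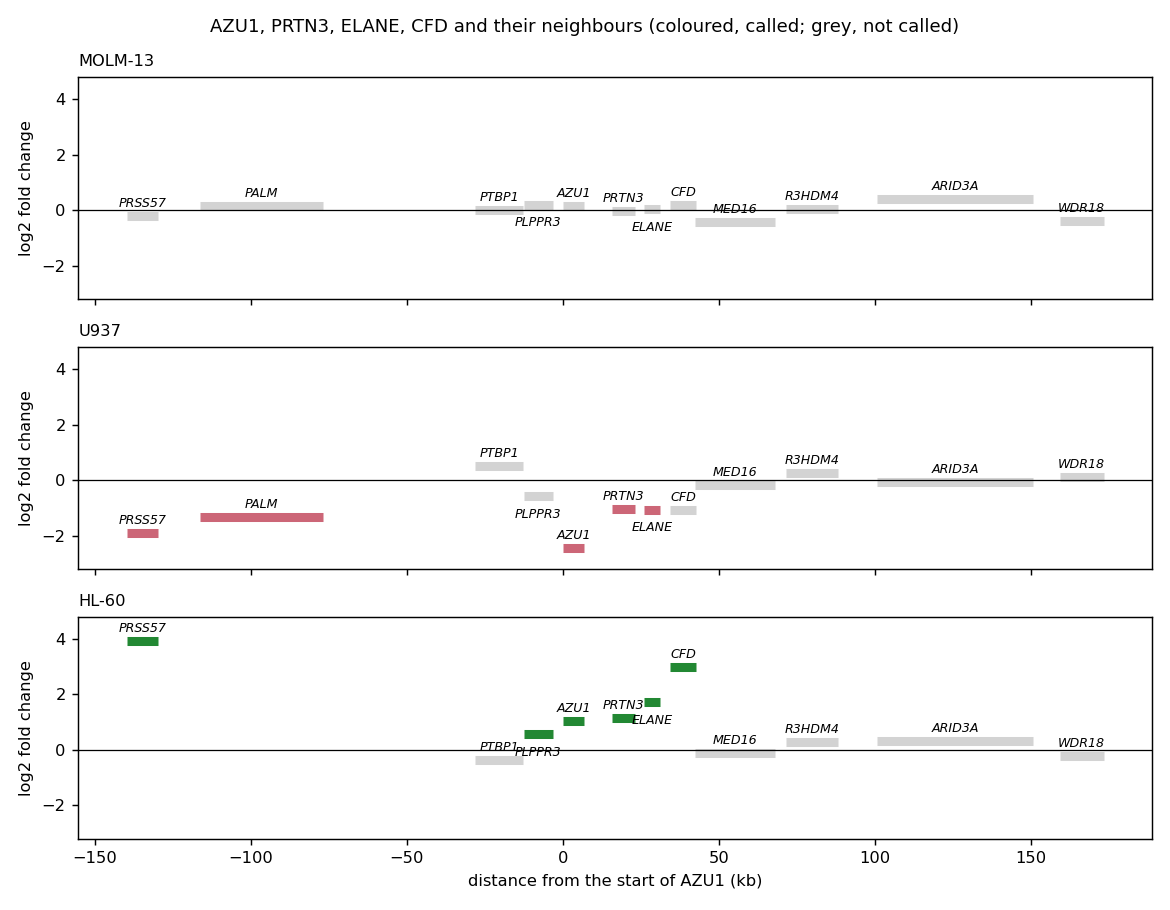
Log2 fold change of AZU1, PRTN3, ELANE, CFD and the 5 genes on each side, at their distance in kb from the start of AZU1, in the 3 lines. Coloured bars were called, grey bars were not, and genes listed at 0 are left out. PRSS57 (-1.92 in U937 and 3.94 in HL-60) is the outermost gene on the left.

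Other genes of the granule pathway came from lists drawn up by function, with earlier results of these data known. Their counts stand beside the shares of all genes tested, which were 13.6% higher and 12.3% lower in HL-60 and 6.92% higher and 8.74% lower in U937. In HL-60, 8 of 18 tested genes of other azurophil proteins rose and none fell, with a median log2 fold change of 0.56. They included PRSS57 (3.94) and the lysosomal hydrolases FUCA1 (1.49) and ARSA (0.93). In U937, 1 of 17 rose, near the share of all genes, and 3 fell, and those that fell were PRSS57 (-1.92), GAA (-1.20) and MAN2B1 (-1.0). CTSC, the peptidase that activates the granule serine proteases, was not called, at 6464, 6188 and 5930 with pLKO and 7155, 6407 and 7281 with shRNF5 in HL-60 and log2 fold changes of 0.16 in HL-60, 0.07 in U937 and -0.34 in MOLM-13.

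Of specific and gelatinase granule proteins, made later in granulocyte development, most were listed at 0 in each line. In HL-60, 4 of 7 tested rose, namely HP (3.72), CHI3L1 (3.0), MMP25 (2.48) and CYBA (1.18), and CYBB, the catalytic subunit of the NADPH oxidase, fell by 0.49. In U937, where members of the primary granule fell, 4 of 8 rose, namely MMP8 (2.54), MMP25 (2.33), FCN1 (0.95) and CHI3L1 (0.83), and none fell. FCN1 is also a monocyte marker. Of 6 monocyte markers tested in U937, 2 rose, FCN1 among them, and the list summed to 31.8 to 55.9 ppm with pLKO and 61.9 to 68.1 ppm with shRNF5, with CD14, CD68, VCAN and MRC1 listed at 0. Of 3 basophil and mast cell markers tested in U937, TPSAB1 fell, and the list summed to 64.1 to 112 ppm with pLKO and 22.9 to 25.6 ppm with shRNF5, with CPA3 and HDC listed at 0. The part of these in the member values was not tested.

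Lysosomal cathepsins rose in 7 of 10 tested cases in HL-60 and fell in none (CTSZ 2.40, CTSO 1.59, CTSD 1.48 and CTSH 1.34), whereas 0 of 9 were called in U937. Protease inhibitors went in both directions in HL-60, where 7 of 13 rose, with SLPI (2.57) and TIMP2 (1.99), and 3 fell, with SERPINB10 (-2.43) and SERPINB2 (-1.78). In U937, SERPINB2 rose (1.83) and CST3 (-1.31) and CST7 (-0.72) fell. Chaperones of MPO folding rose in 4 of 9 cases in HL-60 (PDIA6 0.85, PDIA3 0.70, HSP90B1 0.65 and PDIA4 0.64) and were not called in U937. Granule sorting and neutropenia genes rose in 2 of 16 cases in HL-60 (TCIRG1 0.84 and STXBP2 0.61) and fell in 2 (AP3M1 and GATM, -0.69 and -0.68), counts near the shares of all genes in that line, and 0 of 17 were called in U937 or MOLM-13.

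Transcription factors that regulate primary granule genes were examined as a list. In HL-60, CEBPB rose (0.56) and EGR1 fell by 2.0 among 10 tested, and in U937 4 of 12 rose, among them EGR1 (2.0), RUNX1 (1.24) and CBFB (1.09). SPI1, which encodes PU.1, was 1962 and 1151 with pLKO and 991 and 759 with shRNF5 in U937, where its log2 fold change of -0.79 was not called (limma adjusted p = 0.127). GFI1 had log2 fold changes of -0.22 in U937 and 0.08 in HL-60, and CEBPA of 0.30 and 0.21. Of 10 receptors of neutrophil maturation listed, 5 were tested in U937 and 3 in HL-60. FPR1 rose in U937 (4.61), from 1 and 0 with pLKO to 31 and 36 with shRNF5, so its pLKO values lay at the floor. CSF3R fell (-0.97) in U937, and CXCR2 fell (-0.65) in HL-60. In MOLM-13, no gene of these lists was called.

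**Figure D5:**
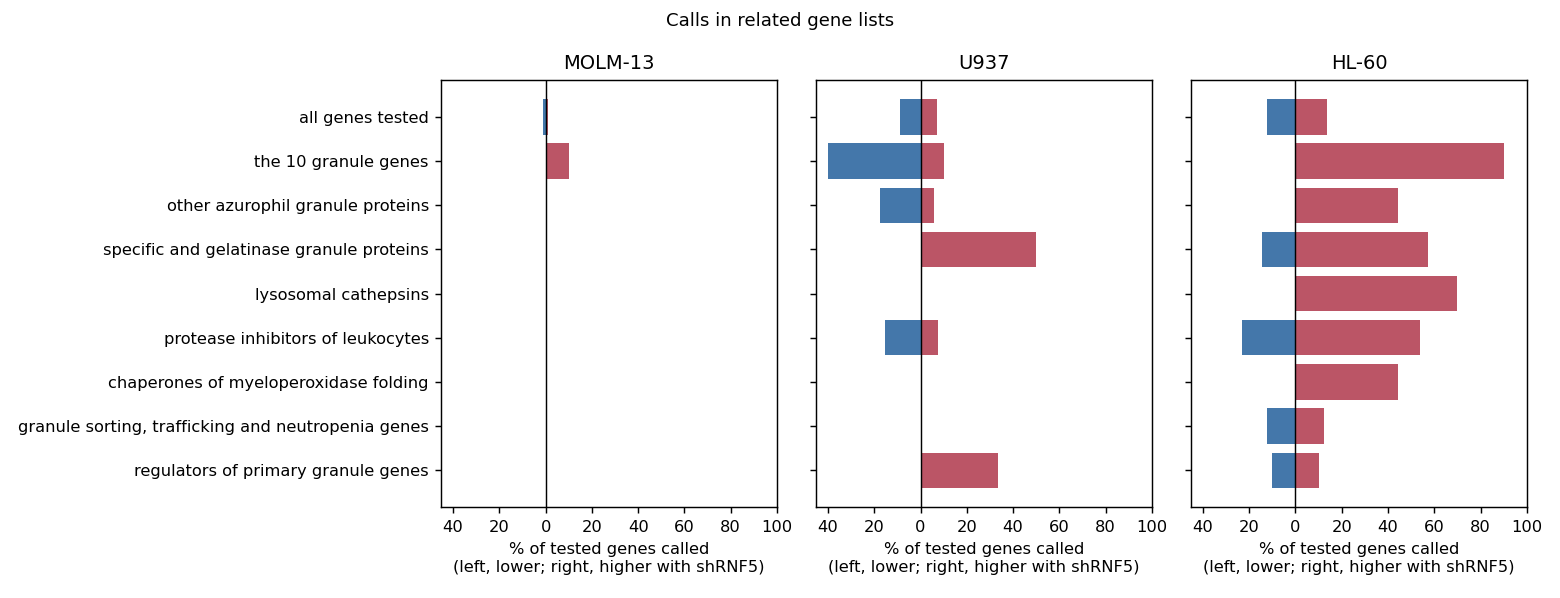
Percentage of tested genes called higher (right) and lower (left) with shRNF5, for all genes, the 10 granule genes and lists of related genes in each line. The percentages for all genes are 13.6 and 12.3 in HL-60, 6.92 and 8.74 in U937 and 1.03 and 1.01 in MOLM-13.

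The lines themselves differed in how much of each member they expressed. Because the authors normalized the lines separately, levels were set side by side in ppm, with no test. MPO was at 7440 ± 820 (SD, n = 3) ppm in HL-60 pLKO, 52.7 ± 9.31 (n = 3) in MOLM-13 pLKO and 2.27 ± 0.39 (n = 2) in U937 pLKO, with all 3 ranges apart. CTSG was highest in U937 (1480 ± 490 ppm) and MOLM-13 (1140 ± 101), whose ranges overlapped, and low in HL-60 (56.3 ± 16.2). HL-60 was thus the highest of the lines for MPO and the lowest for CTSG.

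ELANE was 626 ± 98.8 ppm in U937 and 600 ± 41.4 in MOLM-13, ranges that overlapped and whose order changed under another scaling, and 275 ± 42.2 in HL-60. AZU1 was lowest in HL-60 (118 ± 14.9) and stood at 947 ± 191 in MOLM-13 and 802 ± 60.5 in U937, with an overlap between MOLM-13 and U937. PRTN3 was 592 ± 121 in HL-60 and 502 ± 248 in MOLM-13, which overlapped, and 160 ± 86.1 in U937. LYZ, RNASE2 and CFD were ordered MOLM-13, U937 and HL-60, with overlap between MOLM-13 and U937 in each and between U937 and HL-60 for CFD.

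SRGN was 2540 ± 210 ppm in MOLM-13, 1580 ± 603 in HL-60 and 1410 ± 247 in U937, the last pair overlapping. SERPINB1 was 383 ± 81.7 in U937, 126 ± 15.1 in MOLM-13 and 16.2 ± 6.88 in HL-60, with no overlap. After RNF5-KD, ELANE stood at 916 ± 244 ppm in HL-60 and 291 ± 55.5 in U937, the reverse of their order with pLKO. For SERPINB1, HL-60 stayed lowest after knockdown, at 86.8 ± 39.3 beside 356 ± 52.8 in U937 and 205 ± 47.8 in MOLM-13. The 10 members together took 0.883% to 1.14% of the summed values in HL-60 pLKO libraries and 1.29% to 2.20% in shRNF5 libraries. In U937 the share was 0.569% and 0.615% with pLKO and 0.480% and 0.378% with shRNF5, and in MOLM-13 it was 0.688% to 0.868% with pLKO and 0.893% and 1.08% with shRNF5.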

How the data were processed

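RNA-seq libraries of MOLM-13, U937 and HL-60 were grouped by line and construct from the sample labels. Per the submitters' processing notes and methods, the authors aligned reads to hg19, summarized them by gene (featureCounts) and scaled each line by itself in SARTools with edgeR. The deposited values are a score, that is, normalized read counts that the authors rounded to whole numbers, with genes failing their filter listed at 0. Because the values are not raw counts, limma 3.58.1 (R 4.3.3) was run on log2(value + 1) with an empirical Bayes trend, over 12570 genes for HL-60, 13165 for U937 and 13026 for MOLM-13. This scale understates changes of low values. Depth was estimated from the spacing of rounded values. The procedure was tested on simulated data. The labels name a 3′-end kit and the methods a directional poly(A) kit, and no counting interval is given. The members and gene lists were chosen with earlier results of these data known. Named genes are the members, RNF5, at most 4 called genes per list and line with the largest change, locus neighbours and the 5 genes most like the member mean. CTSC, SPI1, GFI1, CEBPA and RNASE3 were added after their values were seen. Some results for single genes are not reported here. Alternatives covered scaling, pseudocounts, filters, thresholds, variance settings, replicate blocks and leaving out libraries. The length correction and a block by file numbering were added after the data were examined.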

Additional observations from a re-analysis of the deposited data

Results flagged for a closer look

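The response of 6 granule genes differed between U937 and HL-60 by a limma test of the difference itself. In U937 minus HL-60, the log2 fold changes differed by -2.79 for ELANE, -3.49 for AZU1, -2.20 for PRTN3, -3.18 for CTSG, -4.08 for CFD and -2.43 for SERPINB1. The same test found differences between MOLM-13 and HL-60 of -1.69 for ELANE, -2.08 for CTSG, -2.78 for CFD and -1.71 for SERPINB1, and between MOLM-13 and U937 of 1.10 for ELANE and 2.59 for AZU1. These are the results already described, and the members were chosen with the fold changes of each line known. ELANE is the member whose response differed in every pair of lines, although its difference between MOLM-13 and U937 was called in 9 of 15 leave-one-out fits.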

How the results depend on the processing

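With 2 or 3 libraries a group and values already rounded and filtered by the authors, small changes of low-count genes could not be resolved. No result changed sign among the called values, and in HL-60 every alternative gave a count within 1.5 times of the 9 members called. In MOLM-13, where 1 member was called, the count was 0 at an adjusted p under 0.05, without the mean-variance trend and in a single fit over all 15 libraries, 2 at an unadjusted p under 0.05, with library weights and with the correction for transcript length, and 0 to 2 when single libraries were left out. In U937, where 5 were called, it was 2 at an adjusted p under 0.05, 1 without the trend and 0 to 4 without single libraries. For the difference between MOLM-13 and U937, where 2 were called, it was 1 at an adjusted p under 0.05 and 1 to 5 without single libraries, and for MOLM-13 and HL-60, where 4 were called, it was 1 to 6 without single libraries. Under median-of-ratios scaling, 9 of 10 members kept the order of lines, ELANE being the exception. The cause of these changes was not tested.

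Whether the replicate numbers pair the libraries could not be settled. Deviations of same-numbered libraries correlated at -0.173 and -0.53 in MOLM-13 and at 0.505, 0.156 and -0.109 in HL-60. By the numbers of the files, MOLM-13 pLKO replicate 2 pairs with shRNF5 replicate 1 (0.53) and pLKO replicate 3 with shRNF5 replicate 2 (0.281). With 2 shRNF5 libraries in MOLM-13, their deviations are mirror images, so these correlations cannot decide the pairing. With the replicate block, RNASE2, SRGN and SERPINB1, 3 members, were called in MOLM-13 (CFD, SRGN and SERPINB1, also 3, with the numbers of the files), 9 in HL-60, 0 for the difference between MOLM-13 and U937, 5 for MOLM-13 and HL-60 and 7 for U937 and HL-60. The differences between MOLM-13 and U937 under the block were 2.12 for AZU1 and 1.43 for ELANE. No block could be fitted in U937 alone, where the constructs share a single number. In the block fits between lines, the U937 change came from replicate 3 of each construct alone. Counts and differences involving U937 under the block rest on that pair.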
